A study of Homo sapiens with 8 samples.

Results

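The regions described here are 707 short stretches of the transcribed genome that carried an m6A peak in all 4 peak lists of HepG2 cells but few sequenced fragments per base. They are the low-density 20% of 3535 compact shared regions, out of 12221 regions in all. N6-methyladenosine (m6A) is a methyl mark on adenosines of mRNA. METTL3 is the catalytic subunit of the complex that writes it, METTL14 is its partner, FTO and ALKBH5 can remove the mark, and YTH domain proteins read it and pass the mRNA on to decay or translation. In m6A-seq, broken mRNA is incubated with an antibody against m6A, the captured pieces are read by sequencing, and stretches where they pile up above the background are called as peaks. The number of fragments (tags) in a peak therefore rises both with the abundance of the mRNA and with the part of its copies that is methylated. The fold enrichment that the peak caller gives is set against a background, so that a peak with few tags may have a high fold enrichment.

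HepG2, a line derived from a human hepatocellular carcinoma and used here between passages 10 and 15, was transfected with a control siRNA (siControl) or with an siRNA against METTL3 (siMettl3) and harvested 48 h later. Both groups received the same transfection reagent, and no cells without siRNA were sequenced. The knockdown rests on 1 siRNA target sequence, and the lists hold neither gene names nor mRNA levels, so that METTL3 itself could not be examined in these samples. Time, reagent and siRNA come from the methods of the paper and not from the labels of these samples, whose series title names another topic than that paper. Each group had 2 replicates, numbered 1 and 2 in the labels, and nothing in the labels says that they came from separate cultures, so the spread between them may be technical.

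The members were chosen by their tag density. Peaks of the 4 lists sharing at least 1 base were joined to regions. Regions with a peak in every list and a merged size under 3000 bases were kept, the tags per kb of peak were ranked within each list, and the 20% with the lowest average of the 4 ranks are the members. Of the 12221 regions, 3875 had a peak in every list. Among these, 340 were too large, 2121 were compact regions in the middle of the ranking and another 707 were the high-density 20% at its upper end. Tag density, tag number, peak length and the presence of a peak in every list were thus used to choose the members, and their levels are given below as a description with no test. The lists held between 6888 and 8577 peaks, with between 1945803 and 2426342 tags inside them. Members held between 711 and 720 peaks a list, which was between 8.39% and 10.3% of the peaks and between 8.02% and 9.16% of the covered bases, but only between 3.34% and 3.96% of the tags. siMettl3 replicate 2 stood apart in 2 ways that bear on the results. It had the highest fold enrichment in the members, and its summits lay farther from those of the other lists.

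The median tag density of the members was 94.8 and 107 tags per kb in replicates 1 and 2 of siControl, and 95.9 and 91.3 in those of siMettl3. siControl replicate 2 was the highest of the 4 and siMettl3 replicate 2 the lowest, and the values of the 2 groups overlapped. The high-density regions were between 3.65 and 4.23 times as dense and the remaining compact regions between 1.8 and 1.93 times. This lay in the tags and not in the length, since the denser regions had longer median peak lengths than the members. The median member had 98, 119, 97 and 98 tags in the same order of lists, while the median high-density region had between 4.34 and 5.59 times as many. The summed peak length of the median member was between 1024 and 1106 bases, and that of the median high-density region was between 1.20 and 1.29 times as long. Single members ranged from 34 to 473 tags and from 371 to 2942 bases in a list. The merged size of a member had a median of 1256 bases and ranged from 496 to 2984. In 683 members (96.6%) every list had a single peak, against 99.3% of the high-density regions.

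**Figure D1:**
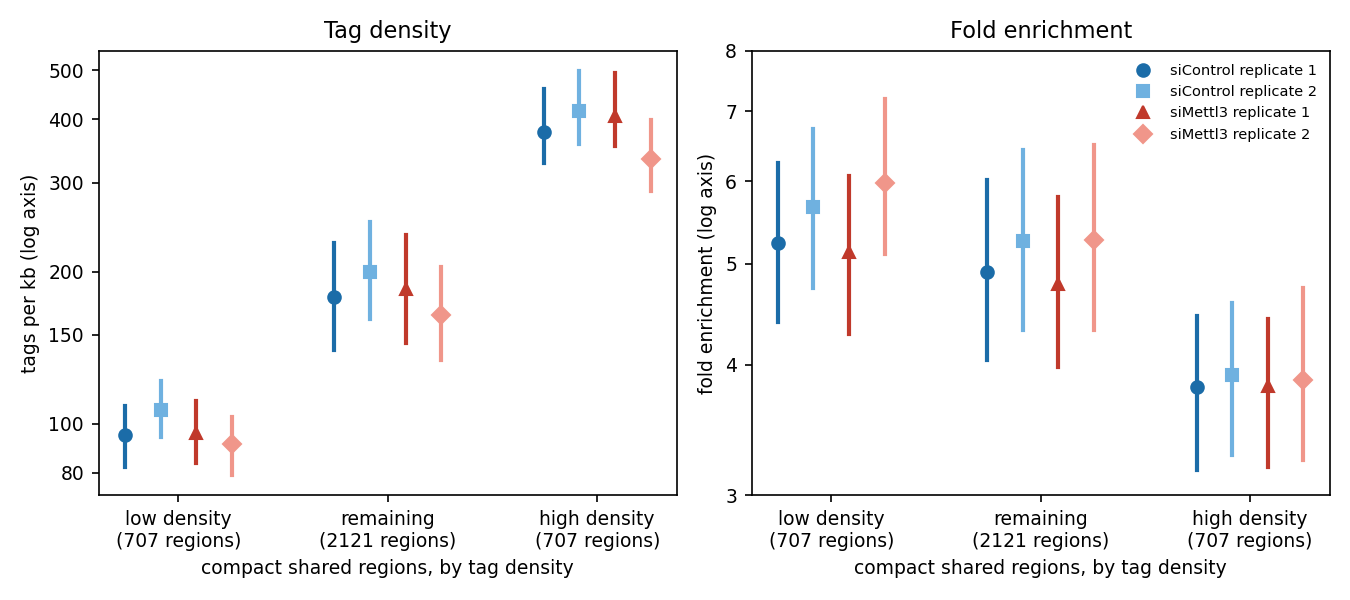
Tag density in tags per kb (left, log axis) and fold enrichment (right, log axis) of the low-density members, the remaining compact shared regions and the high-density regions in each of the 4 samples. Symbols are medians over regions and lines run from the lower to the upper quartile. In every sample the low-density members have the lowest tag density and the highest median fold enrichment, between 5.13 and 5.97 against between 3.81 and 3.91 in the high-density regions.

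The average of the 4 ranks chose the members, so how many lists placed them in the lowest 20% is largely set by the rule. Of the 707 members, 367 (51.9%) were in the lowest 20% of every list. Another 187 were in that of 3 lists, 137 in that of 2 lists and 16 in that of a single list. The rankings below were made on separate lists, but over the same compact shared regions, and are given as a description. Ranking on the siControl lists alone and then on the siMettl3 lists alone gave 517 regions (73.1% of each set of 707) that were in the lowest 20% of both. The regions chosen on the siControl lists had a median of 99.0 tags per kb in the siMettl3 lists, where all compact shared regions had 176. Those chosen on the siMettl3 lists had 105 tags per kb in the siControl lists, against 188 for all compact shared regions. Ranking on the replicates numbered 1 and on those numbered 2 gave 595 regions (84.2%) in both.

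The region with the lowest average rank (24.75 of 3535) was chr10:75489862-75490787 (hg19). It had 56, 64, 60 and 56 tags in siControl replicates 1 and 2 and siMettl3 replicates 1 and 2, with fold enrichments of 4.12, 5.56, 4.55 and 5.97. In both groups the replicate numbered 2 was the higher one, and the groups overlapped. The next in the ranking, chrX:7267800-7268829, had 56, 91, 62 and 53 tags and fold enrichments of 4.54, 5.43, 4.55 and 5.80. The third, chr18:77906225-77907250, had 73, 76, 59 and 57 tags and fold enrichments of 4.54, 5.43, 5.22 and 6.14. In all 3 the fold enrichment of siMettl3 replicate 2 was the highest of the 4.

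At the other end, the last 3 regions inside the limit had average ranks of 768.5, 772.5 and 772.875, and the first 3 outside had 773.25, 773.5 and 773.75. Those inside had between 76.7 and 155 tags per kb in the 4 lists, and those outside between 92.4 and 158. The limit therefore cut through a continuous range. In 2 of the last 3 inside, the siControl lists were above the siMettl3 lists in fold enrichment. They were chr19:54597833-54599460, with 8.03 and 10.03 in siControl and 5.35 and 5.63 in siMettl3, and chr14:59835218-59836077, with 8.37 and 9.50 in siControl and 4.85 and 6.16 in siMettl3. The third region inside, chr19:58878882-58880927, had fold enrichments of 6.88, 6.21, 6.57 and 8.46 in the same order of lists, so that its groups overlapped.

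Although they held few tags, the members had a higher fold enrichment than the high-density regions, and about the same as the compact regions next to them in the ranking. Over the members, the medians were 5.24 and 5.67 in siControl and of 5.13 and 5.97 in siMettl3, with a mean of 5.50 ± 0.389 (SD over the 4 medians). The high-density regions had a mean of 3.85 ± 0.0465 and the remaining compact regions of 5.06 ± 0.248 (SD, n = 4 each). In each list the median of the members was thus between 1.34 and 1.54 times that of the high-density regions, and between 1.07 and 1.13 times that of the remaining ones. Fold enrichment is computed from the same tags that chose the members, so this is a description and not a test. The lowest fold enrichment among the members was between 2.66 and 3.01 in a list, against between 1.83 and 2.04 among all compact shared regions. Peaks were listed only with a score of at least 50. How far that limit sets the fold enrichment of listed peaks with few tags was not tested.

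The relation between density and enrichment turned near the upper end of the members. Over 10 equal steps of the ranking, median fold enrichment was between 4.95 and 5.97 in the lowest step, between 5.31 and 6.11 in the second, between 5.13 and 6.06 in the third, which lies outside the members, and between 5.14 and 5.74 in the fourth. It then went down to between 3.44 and 3.60 in the highest. The lowest step was below the third in every list, and below the fourth in every list but siMettl3 replicate 2, so the high fold enrichment was shared with the denser regions nearest to the members. In siMettl3 replicate 2 the highest median was in the third step (6.06), and in the other lists it was in the second. Within the members, Spearman's rho of tag density and fold enrichment was 0.315, 0.320, 0.321 and 0.238 in the 4 lists over 707 regions, while over all 3535 compact shared regions it was between -0.485 and -0.364. These values are across regions of a list, which share a library and are not independent, and both measures hold the same tags.

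**Figure D2:**
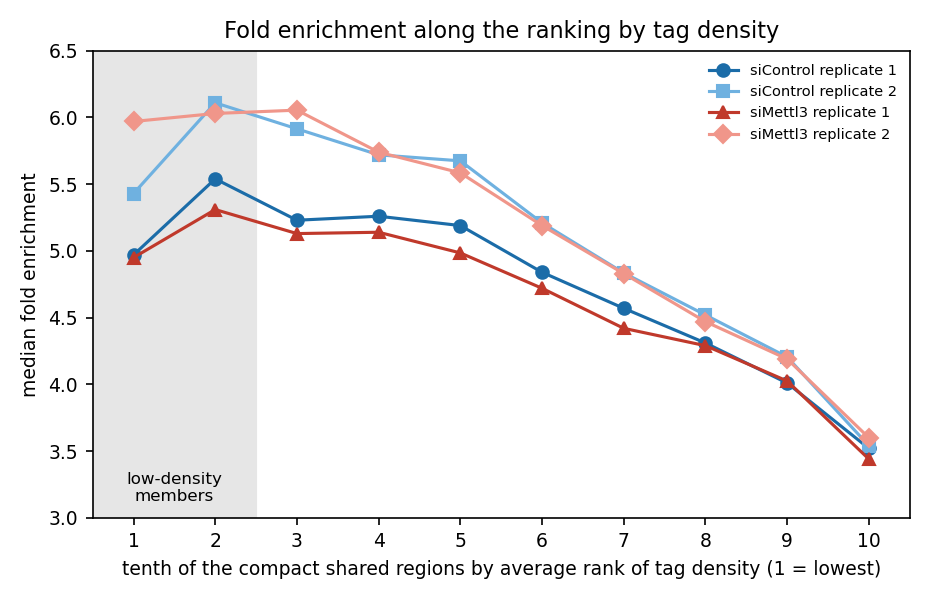
Median fold enrichment in 10 equal steps of the compact shared regions along the average rank of tag density, from 1 (lowest) to 10 (highest), for each of the 4 samples. The shaded first 2 steps are the 707 members. Medians lie between 4.95 and 6.11 in the shaded steps and between 3.44 and 3.60 in the last step.

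The highest mean log2 fold enrichment among the members was at chr10:104503353-104504337, with fold enrichments of 6.09, 10.35, 10.30 and 16.34 on 55, 102, 95 and 116 tags. Its groups overlapped, since siControl replicate 2 was slightly above siMettl3 replicate 1, and its 4 summits lay within 2 bases. The next, chr22:31885221-31886292, had fold enrichments of 6.87, 10.48, 9.83 and 10.74 on 76, 97, 102 and 89 tags, with summits within 12 bases. The third, chr13:28866156-28868313, had 7.60, 11.25, 9.90 and 8.15 on 173, 226, 171 and 100 tags, with summits within 45 bases. In all 3, siControl replicate 1 was the lowest list.

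The peak score, which is the negative log10 of the caller's p-value times 10 and starts at 50 in these lists, was low in the members. Its median was 112 and 152 in siControl and 105 and 142 in siMettl3, against between 216 and 253 in the high-density regions. The lowest of a member's 4 scores had a median of 74.9 and quartiles of 60.0 and 106, so that in most members at least 1 list was close to the calling limit. That list was siMettl3 replicate 1 in 298 members, siControl replicate 1 in 239, siMettl3 replicate 2 in 96 and siControl replicate 2 in 74. A score of at least 100 in every list was found in 199 members (28.1%), against 65.6% of the high-density and 53.0% of the remaining compact regions. The false discovery rate (FDR) listed with the peaks had a median of 66.5%, 44.9%, 74.9% and 41.2% over the members in the same order of lists, against between 20.9% and 36.2% in the high-density regions. An FDR of at most 50% in every list was found in 75 members (10.6%), compared with 355 high-density regions (50.2%). Only 2 members, both in siControl replicate 2, had an FDR of at most 5% in a list.

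The position of the summit, the base with most tags, was not used to choose the members. The summits of the 4 lists spread over a median of 92 bases in a member (quartiles 47.5 and 163), over 71 in the remaining compact regions and over 57 in the high-density regions. All 4 summits lay within 100 bases in 380 members (53.7%), against 75.5% of the high-density regions, and they spread over more than 500 bases in 70 members (9.90%). Between pairs of lists, the median distance in the members was 28 or 29 bases for the 3 pairs without siMettl3 replicate 2 and between 43 and 47 for the 3 pairs with it. The 2 pairs of the same group gave 28 bases (siControl) and 43 (siMettl3), and the 4 pairs across groups gave 28, 29, 46 and 47, of which the larger values are the pairs with siMettl3 replicate 2. In the high-density regions the pairs with siMettl3 replicate 2 were also the farther ones, with between 29 and 35 bases against between 11 and 13.

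In 10 members (1.41%), replicate summits were within 100 bases while every siMettl3 summit was more than 200 bases from every siControl summit, a rule set after the values had been seen. The same held in 21 of the 2121 remaining compact regions (0.990%) and in 6 of the 707 high-density regions (0.849%). The largest such distance was at chr17:15879816-15881771, where the siControl summits were at 15881241 and 15881238 and the siMettl3 summits at 15880183 and 15880271. At least 967 bases thus lay between the groups and at most 88 between replicates. Fold enrichment at that region was 5.55 and 5.75 in siControl and 6.76 and 7.84 in siMettl3. At chr19:57983782-57985976 the groups were at least 856 bases apart and the replicates at most 49. At chr5:131131680-131133001 the groups were at least 604 bases apart and the replicates at most 37. Distances between summits were given no test.

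Knockdown of METTL3 was then compared with the control in the fold enrichment of the members. The rule did not rank regions by this contrast, but it kept only those with a peak in every list. Regions without a peak in a siMettl3 or siControl list are therefore not among those compared. The measure is not free of the rule, since it holds the same tags. The median member had a log2 fold enrichment of 2.44 in siControl and 2.48 in siMettl3. The median of the differences (siMettl3 minus siControl) was 0.041 on the log2 scale, with quartiles of -0.16 and 0.24, beside a median of 0.0091 over all 3875 shared regions. Fold enrichment was higher in siMettl3 in 389 members (55.0%), against 51.5% of all shared regions. A median of 0.041 was smaller than the spread between lists, since the median difference between the replicates was -0.10 in siControl and -0.25 in siMettl3 (replicate 1 minus replicate 2). It also depended on single lists. Without siMettl3 replicate 2 the median difference was -0.075, without siControl replicate 1 it was -0.020, without siControl replicate 2 it was 0.10 and without siMettl3 replicate 1 it was 0.16. The median over all shared regions moved with it, to -0.053, -0.036, 0.055 and 0.056. Fold enrichment is a ratio within a list, so a change common to all regions might not show in it.

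In the limma fit over all 3875 shared regions, 0 of the 707 members reached an adjusted p of 0.05 or less (Benjamini-Hochberg), and the share called over all regions was 0%. The smallest adjusted p among the members was 0.373. At an unadjusted p under 0.05, 49 members (6.93%) were higher in siMettl3, beside 4.65% of all regions, and 34 (4.81%) were lower, beside 4.95%. These counts are without adjustment, and 1 list could move each of them by over 1.5 times. Where 1 list is left out, the spread comes from the other group alone. Higher in siMettl3 were 99 members (14%, beside 8.93% of all regions) without siMettl3 replicate 1, 24 (3.39%, beside 2.81%) without siMettl3 replicate 2 and 21 (2.97%, beside 1.78%) without siControl replicate 1. Lower were 67 (9.48%, beside 7.46%) without siMettl3 replicate 2, 20 (2.83%, beside 3.1%) without siMettl3 replicate 1 and 12 (1.7%, beside 3.17%) without siControl replicate 2. Counts over all regions thus moved the same way as those of the members.

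Both siMettl3 values were above both siControl values in 153 members (21.6%), beside 20.6% of all shared regions, and both were below in 111 (15.7%), beside 21.1%. In the other 443 members the groups overlapped. The share above was near that of all regions. The share below was lower than that of all regions. It was also low in the shared regions of 3000 bases or more (14.1%), but not in the remaining compact (23.2%) or high-density regions (23.3%). A region without a peak in a siMettl3 list could not be counted as below. Leaving out 1 list raised both counts, in the members and in all regions, since a comparison of 1 list with 2 is less strict. Above were 293 members (41.4%, beside 40.7% of all regions) without siControl replicate 2 and 370 (52.3%, beside 44.4%) without siMettl3 replicate 1. Below were 174 (24.6%, beside 29.6%) without siControl replicate 2, 236 (33.4%, beside 38.1%) without siControl replicate 1 and 318 (45%, beside 43.3%) without siMettl3 replicate 2. The share below was therefore not lower than that of all regions in every setting.

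**Figure D3:**
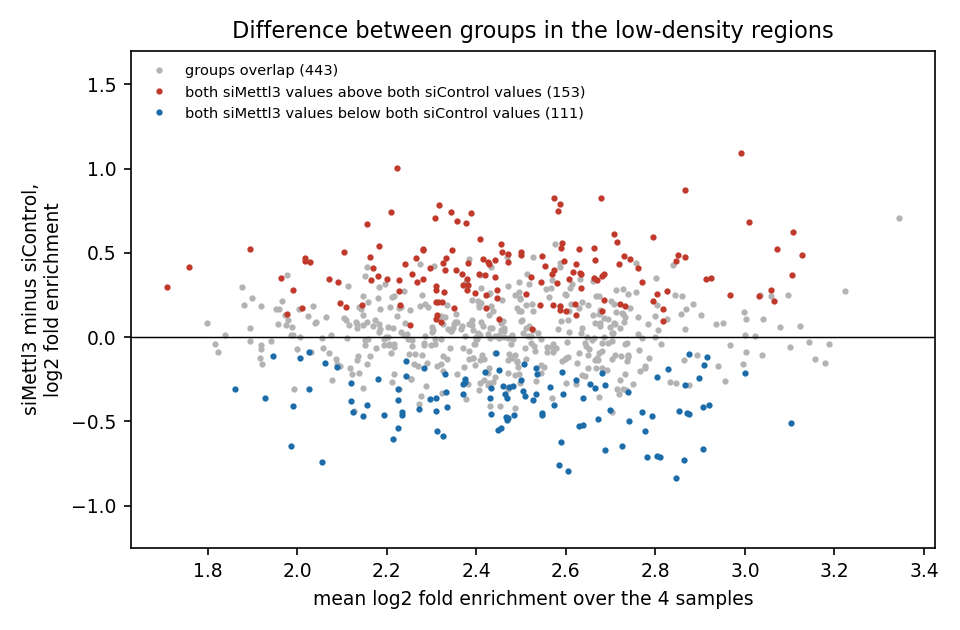
Difference in log2 fold enrichment (siMettl3 minus siControl) of the 707 members against their mean log2 fold enrichment over the 4 samples, 1 point a region. Red points (153) have both siMettl3 values above both siControl values, blue points (111) below, and in grey points (443) the groups overlap. The points scatter around a median of 0.041, and 2 members pass a difference of 1 in either direction.

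Fold enrichment varied more between replicates in the members than in denser regions. The within-group SD of log2 fold enrichment had a median of 0.23 over the members, 0.18 over the remaining compact regions and 0.12 over the high-density regions. Pearson's r of log2 fold enrichment across the members was 0.604 for the siControl pair and 0.549 for the siMettl3 pair, and from 0.415 to 0.466 when the lists came from both groups. The siControl pair gave 0.821 over the high-density regions. These correlations are across 707 regions of the same libraries and describe them only. A difference of more than 0.5 on the log2 scale in either direction was found in 60 members (8.49%), 191 remaining compact regions (9.01%) and 21 high-density regions (2.97%).

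The member with the largest difference towards siMettl3 was chr19:39797646-39798918. Its fold enrichment was 4.68 and 6.34 in siControl and 11.17 and 12.09 in siMettl3, on 59, 107, 202 and 151 tags, so that both siMettl3 lists were well above both siControl lists. The difference was 1.09 ± 0.20 on the log2 scale (SE, limma, adjusted p = 0.373). The second, chr22:28396038-28398673, had fold enrichments of 3.24 and 3.36 in siControl and 7.31 and 5.97 in siMettl3 (difference 1.00 ± 0.18, adjusted p = 0.373). Here the peaks also differed in extent, with 873 and 1040 bases in siControl and 2624 and 2520 in siMettl3, the last of these in 2 peaks. Its 4 summits spread over 680 bases.

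The third, chr22:42519885-42521589, had fold enrichments of 4.68 and 6.21 in siControl and 9.35 and 10.40 in siMettl3 (difference 0.87 ± 0.20, adjusted p = 0.388). Its peaks covered 720 and 717 bases in siControl and 1628 and 1416 in siMettl3, the last again in 2 peaks. At chrX:109245426-109246423 the fold enrichment was 4.48 and 5.17 in siControl and 7.22 and 10.06 in siMettl3 (difference 0.82 ± 0.21). At chr16:15732809-15733346, one of the shortest members with 538 bases, it was 4.55 and 4.40 in siControl and 6.69 and 9.38 in siMettl3 (difference 0.82 ± 0.20). Neither passed the test (adjusted p = 0.404 for both). In all 5 regions, siControl replicate 1 had an FDR of 100%, and the lowest siControl score lay between 52.8 and 72.4, close to the limit of 50.

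Among the members with lower values in siMettl3, the largest difference was at chr8:104084575-104085405. Its fold enrichment was 9.65 and 9.57 in siControl and 5.22 and 5.55 in siMettl3, on 96, 109, 78 and 63 tags (difference -0.84 ± 0.16, adjusted p = 0.373). Replicates of both groups were close to each other here. The second, chr10:27458734-27459889, had fold enrichments of 7.52 and 8.54 in siControl and 4.36 and 4.90 in siMettl3 (difference -0.79 ± 0.17, adjusted p = 0.384), although its tags, 93, 142, 93 and 111, overlapped between the groups. The third, chr2:71130709-71132702, had 6.72 and 9.06 in siControl and 4.68 and 4.55 in siMettl3 (difference -0.76 ± 0.20, adjusted p = 0.404). Its tags were 225 and 304 in siControl and 86 and 108 in siMettl3, and it holds the lowest FDR of any member, 3.23% in siControl replicate 2.

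At chr13:31231504-31233761 the fold enrichment was 5.89 and 4.91 in siControl and 2.91 and 3.55 in siMettl3 (difference -0.74 ± 0.19, adjusted p = 0.404), and its summits spread over 1004 bases. At chr17:36700772-36701886 it was 7.47 and 11.77 in siControl and 4.68 and 6.82 in siMettl3 (difference -0.73 ± 0.28, adjusted p = 0.474). The siControl replicates of the latter differed from each other by more than siControl replicate 1 differed from siMettl3 replicate 2. Among the regions with lower values in siMettl3, siMettl3 replicate 1 had an FDR of 100% at the second, the fourth and the fifth. Its scores there were 50.1, 55.0 and 65.0, close to the limit of 50. At the first and the third its FDR was 65.1% and 71.0%. None of the 10 regions with the largest differences passed the test.

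**Figure D4:**
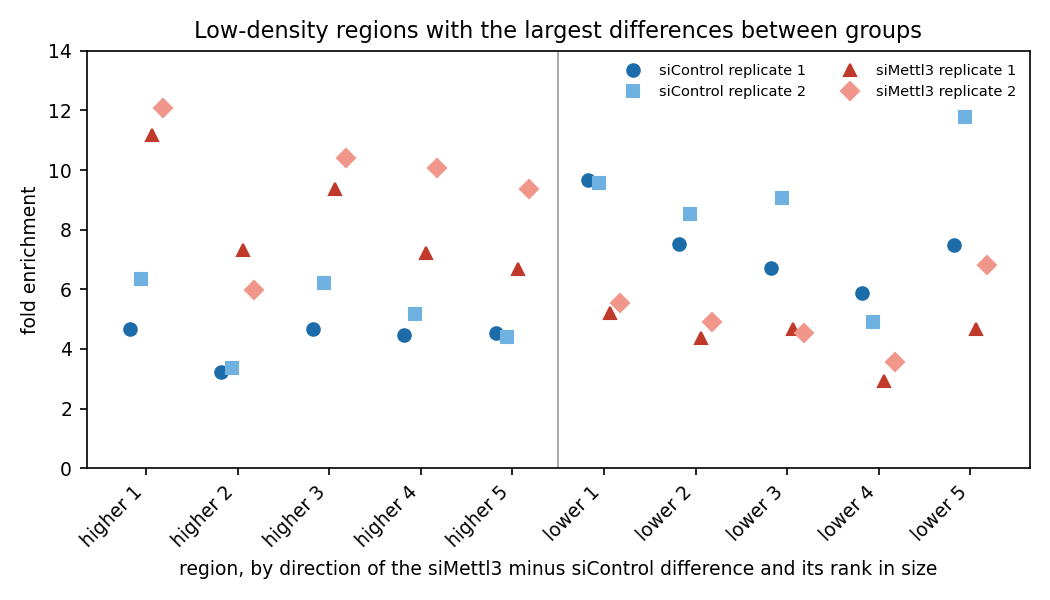
Fold enrichment in each of the 4 samples at the 5 members with the largest positive (higher 1 to higher 5) and the 5 with the largest negative difference between siMettl3 and siControl (lower 1 to lower 5), among members whose groups do not overlap and in the order of the text. The largest positive difference has 4.68 and 6.34 in siControl and 11.17 and 12.09 in siMettl3, and no region passed an adjusted p of 0.05.

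Tag density and peak length were also set beside fold enrichment. Both are quantities that chose the members, so the values are a description. Tag density was taken after subtraction of each list's median over the shared regions. Of the 153 members with both siMettl3 values above, 86 were also above in tag density, beside 258 of the 800 shared regions above. Of the 111 members below, 48 were also below in tag density, beside 235 of the 817 shared regions below. The groups were apart in opposite directions in tag density and fold enrichment in 26 members, and in 419 of all shared regions. Peaks were longer in both siMettl3 lists than in both siControl lists in 46 of the 153 and shorter in 33, beside 209 and 179 of the 800 shared regions above. In the 111 members below they were shorter in 51 and longer in 9, beside 292 and 77 of the 817 shared regions below. Members whose groups overlapped in fold enrichment also had shorter peaks more often, 131 of 443 against 64 with longer ones. The same held over all shared regions whose groups overlapped, with 586 of 2258 shorter and 331 longer. Across the members, the differences in tag density and in fold enrichment had a Pearson's r of 0.431, against 0.0317 across the remaining compact regions and -0.210 across the high-density regions. Both values come from the same tags and the same 4 libraries, and r is given as a description across regions. Over all members the median difference in tag density was 0.014 with that subtraction and -0.093 without it, and tag density, having chosen the members, was given no test.

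The members lay on every autosome and on the X chromosome. The other 2 members lay on the Y chromosome and are not in the plot of shares by chromosome. The 707 members made up 20% of all compact shared regions, and on most chromosomes between 14.1% and 24.7% of those there. Chromosome 20 held the smallest share, 9 of 82 regions (11%), and the largest share of high-density regions, 31 of 82 (37.8%). In single lists, 10 or 11 of its 82 regions (12.2% or 13.4%) were in the lowest 20%. This was the smallest share of the 23 chromosomes in every list but siControl replicate 2, where 1 chromosome had a smaller one. Between 34.1% and 39.0% of its regions were in the highest 20% of a list, the largest share in all 4. Their median tag density was 224, 267, 245 and 212 tags per kb in the 4 lists, against 178, 199, 185 and 164 over all compact shared regions. The largest shares were on the X chromosome, with 20 of 81 (24.7%), and on chromosome 4, with 27 of 110 (24.5%), but in single lists these ranged from 19.8% to 28.4% and from 20% to 25.5%. Chromosome 19, which is rich in genes, held 57 members of 247 regions (23.1%).

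**Figure D5:**
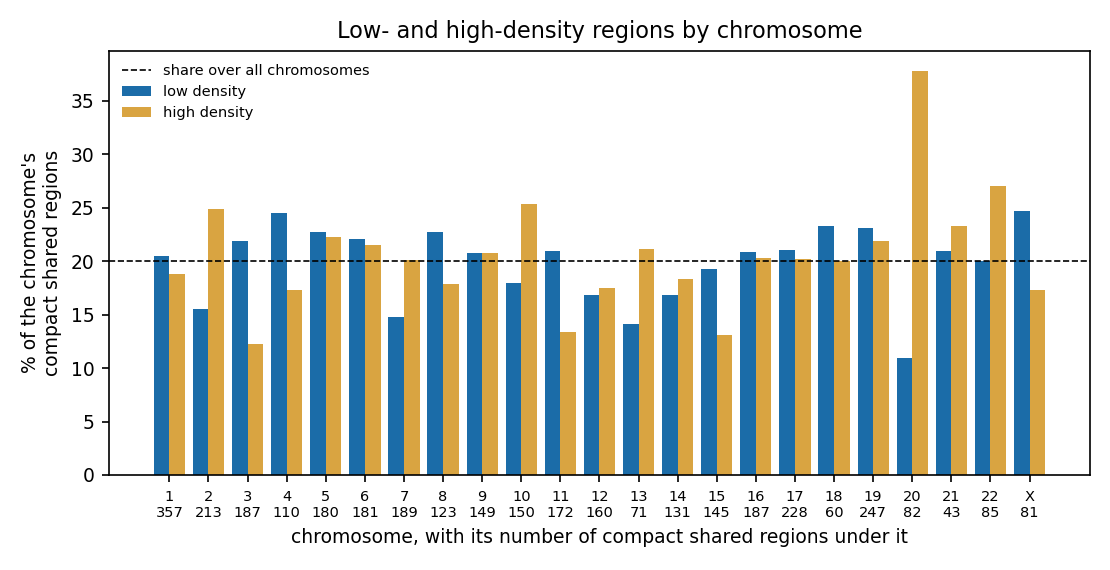
Share of each chromosome's compact shared regions that belonged to the low-density members (blue) or to the high-density regions (yellow), in percent, with the number of compact shared regions under each chromosome. The dashed line is the share over all chromosomes, 20%. Chromosome 20 has the smallest share of members (11%) and the largest of high-density regions (37.8%).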

How the data were processed

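The data are 4 m6A peak lists, 1 per immunoprecipitated sample (siControl and siMettl3, 2 replicates each). The 4 input samples were not analysed here, and whether the peak caller used them as background is not stated in the sources used here. The lists were made per sample, not on pooled replicates. The submitters' processing notes name CASAVA 1.8.2, MACS 1.4.2 and the build hg19, and the aligner is not given in the sources used here. The authors deposited, for each peak, the tag count as a whole number that is not scaled to library size, a score (the negative log10 of the p-value times 10), a fold enrichment as a linear ratio over a background that is not described, and the FDR in percent. The lists do not give the sequencing depth, hence there are no counting intervals, and only 2 replicates per group set the precision.

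Positions are 1-based on hg19. Where a list had several peaks in a region, the highest fold enrichment and score and the lowest FDR were taken, tags and lengths were summed, and the summit is that of the peak with the highest score. Log2 fold enrichment, without a pseudocount, was fitted with limma (lmFit and eBayes, group only) over all 3875 shared regions. The step was tested on simulated data with added changes larger than any difference seen in a member. That test therefore does not show whether differences of the size seen here could be detected. Python 3.11.15, numpy 2.4.6, pandas 2.3.3, scipy 1.17.1, matplotlib 3.10.9, R 4.3.3 and limma 3.58.1 were used.

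Alternatives were a score of at least 70, the replicate block, length-weighted enrichment, median centring, limma with trend and robust settings, each list left out, the lowest 10%, an overlap of at least 100 bases and the density of the peak with most tags. The members, regions and tests were chosen with earlier results of these data known. Regions described singly were the 3 with the lowest average rank, 3 on each side of the limit, the 5 largest differences in each direction among members whose groups did not overlap, and the 3 with the highest mean enrichment. No genome or annotation of hg19 was used here. Genes, exons, motifs and sequences were therefore not analysed, and the RefSeq tables of GRCh38.p14 were not applied to these positions.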

Additional observations from a re-analysis of the deposited data

How the results depend on the processing

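The limma fit called 0 members under all 12 alternatives run, each list left out included. Counts moved by over 1.5 times as follows. With a score of at least 70, which left 411 members, 22 were higher and 20 lower at an unadjusted p under 0.05, 85 had both siMettl3 values above and 73 below, and the median lowest score was 98.98. With the lowest 10%, which left 354 members, these counts were 30, 9, 82 and 39, and the summit spread was 104 bases. Both settings hold fewer members, so a lower count there is not by itself a lower share of the members. Over all 2912 regions fitted with the score limit, 121 were higher and 149 lower at an unadjusted p under 0.05. The lowest 10% left the fit unchanged, with 180 higher and 192 lower of 3875 regions, 800 with both values above and 817 below. With the replicate block, 74 members were higher at an unadjusted p under 0.05, beside 251 of all 3875 regions. In both same-numbered pairs, 176 members were lower, which is a less strict count than both values below both. The counts above and below were not computed over all regions for the block and the score limit. They are therefore not read as a result about the members. The deviations of same-numbered samples had an r of 0.011 across the shared regions. Such an r cannot see a shift common to all regions, and replicate 2 had the higher median fold enrichment in both groups. Whether the numbers pair the samples is therefore not known. With 1 list left out in turn, the counts higher and lower at an unadjusted p under 0.05 ranged from 21 to 99 and from 12 to 67, those with both values above from 188 to 370 and below from 145 to 318, and the summit spread from 53 to 74 bases. The median difference in log2 fold enrichment ranged from -0.075 to 0.16 and that in log2 tag density from -0.037 to 0.050, so both reversed without siControl replicate 1 (-0.020 and -0.0036) and without siMettl3 replicate 2 (-0.075 and -0.037). Without subtraction of the list median, the difference in tag density reversed to -0.093. The cause of these reversals was not tested. The other 70 values kept their direction, and counts among them moved by no more than 1.5 times. The unknown depth limits every comparison of tags. The shares of members on exons and with a GGAC motif were not run.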

Other observations

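Close neighbors were about as frequent for the members as for denser regions, while the median gap to the nearest region was larger. The gap to the nearest other merged region had a median of 16986 bases for the members, 15754 for the remaining compact regions and 12418 for the high-density regions. Another region lay within 5000 bases of 195 members (27.6%), 28.2% of the remaining compact and 27.7% of the high-density regions. That neighbor was itself a member in 24 cases, a high-density region in 3, and in 133 a region that did not have a peak in all 4 lists. For the high-density regions, the nearest neighbor within 5000 bases was a member in 3 cases and another high-density region in 21. The middle part of the merged region, between 1/3 and 2/3 of its length, held the mean summit in 78.5% of the members, 75.2% of the remaining compact and 71.7% of the high-density regions.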
